A study of Mus musculus with 23 samples.

Results

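The ATF4 amino acid response genes are a named list of 37 mouse genes of the integrated stress response, of amino acid synthesis and of amino acid transport. A probe was found for 36 of the 37 through the RefSeq accession that the array gives for it, and 32 of these were bright enough to be tested among 13743 genes. The list was drawn up with results of these arrays in view, among them the differences between lymphoma lines and spleens and the behaviour of Cth and Stc2, so those differences are given here as a description and without a p-value. Probes for Aldh1l2, Cbs, Slc7a11 and Vldlr were too dim to be tested, and Pycr1 matched no probe.

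RNA was labelled with Cy3 and hybridised to one-colour Agilent whole-genome arrays. The lymphoma group held 9 B cell lymphoma lines grown in suspension from tumour-bearing spleens of Atm knockout, Cd3e knockout mice, whose sex was not determined. The lines were compared to 6 spleens without tumour from female Atm knockout, Cd3e knockout mice and to 7 spleens from mice wild type for Atm and knockout for Cd3e, 3 female and 4 male. All mice were of strain C57BL/6 x 129, and all lacked Cd3e, part of the receptor complex of T cells, so no group represents a mouse with a normal T cell compartment. ATM is a kinase activated by breaks in both DNA strands. Ages were not given in the labels. The medium of the lines was RPMI1640 with fetal bovine serum, non-essential amino acids, pyruvate, glutamine, 2-mercaptoethanol and antibiotics. The lines were therefore cultured cells of one lineage and the spleens whole organs, and culture and tumour cannot be told apart in this design.

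ATF4 is a transcription factor whose translation increases when a kinase of the integrated stress response phosphorylates eIF2, for instance when an amino acid is scarce or the endoplasmic reticulum is under stress. With bZIP partners of the C/EBP family it binds composite elements in promoters and raises the RNA of enzymes that make asparagine, serine, glycine, proline and cysteine, of amino acid transporters and of tRNA charging enzymes. It also induces its own brakes, among them TRIB3 and the eIF2 phosphatase subunit encoded by Ppp1r15a. Because ATF4 is controlled largely through translation, the level of its RNA need not follow its activity.

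The composite element is usually written TGATGNAA. Promoter windows from 250 bases before to 50 bases after the transcription start, taken from RefSeq on build GRCm38.p6, were available for 31 of the 37 genes. The letters TGATGNAA occurred on either strand in 10 of these 31 genes (32.3%), against 1219 of 27025 genes with a window (4.51%). The stricter form TGATGCAA, which is contained in the first, occurred in 7 of 31 members (22.6%) and in 1.03% of all genes. The cyclic AMP element TGACGTCA, which reads the same on both strands and shares no overlap with the first motif, occurred in 1 of 31 members, Ppp1r15a, and in 2.03% of all genes. Genes with TGATGNAA were Atf3, Trib3, Nupr1, Chac1, Asns, Pycr1, Pck2, Slc7a11, Slc1a4 and Vldlr, and Slc7a11 held it in both orientations. Eif4ebp1, Aldh1l2, Cth, Slc7a5, Slc7a3 and Slc1a5 had no window in the table used. Many of these genes are in the literature as ATF4 targets because of this element, so its share among them is a description of the list.

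The stretches around the match are shown for the 5 genes with a match whose levels differed most between the lines and both groups of spleens, because 3 of them were higher and 2 lower in the lines although all match TGATGNAA. Stc2 is added for comparison, with the 60 bases before its start. Each is given 5′ to 3′ on the strand of the gene, with the match in capitals. The variable base differs, with TGATGCAA in Atf3, Nupr1 and Slc1a4, TGATGTAA in Trib3 and TGATGAAA in Asns. A match on the opposite strand reads TTGCATCA or TTACATCA.
Trib3, chr2:152344039-152344098, minus strand: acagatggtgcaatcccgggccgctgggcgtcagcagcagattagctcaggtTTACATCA
Slc1a4, chr11:20332710-20332769, minus strand: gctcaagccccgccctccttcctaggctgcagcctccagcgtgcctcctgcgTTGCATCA
Asns, chr6:7693210-7693269, minus strand: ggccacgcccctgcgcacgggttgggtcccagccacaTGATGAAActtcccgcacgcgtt
Atf3, chr1:191183410-191183469, minus strand: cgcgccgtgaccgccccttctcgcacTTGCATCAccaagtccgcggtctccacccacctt
Nupr1, chr7:126625547-126625606, minus strand: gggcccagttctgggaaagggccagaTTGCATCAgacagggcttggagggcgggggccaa
Stc2, chr11:31370062-31370121, minus strand: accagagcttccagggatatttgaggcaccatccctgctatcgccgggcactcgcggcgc
The Stc2 stretch has no capitals because its window held no match. Of the 7 tested members with a match and a window, 5 were higher and 2 lower in the lines than in knockout spleens. Of the 20 tested members with a window and no match, 14 were higher, 3 lower and 3 not called. Among all genes tested, 41.5% were called higher and 28.9% lower against knockout spleens.

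Levels are log2 processed signals relative to the 75th percentile of all spots of the same array, so a level of 0 equals that percentile. Levels of different probes cannot be compared, because probes differ in how well they bind. A gene was called when its adjusted p in limma, corrected by the Benjamini-Hochberg method over all 13743 genes, was under 0.05. Spots well above background made up between 54.9% and 62.3% for lines, between 62.6% and 67.7% for knockout and between 61.7% and 66.9% for wild-type spleens. There were 6 slides, 5 of which held lines and spleens, and slide 1 held lines 7, 8 and 9 alone. B cell markers were well above background in all samples, 10 of 10 on the list, with summed signals of 310 to 565 times the 75th percentile over the lines, against 327 to 478 over knockout and 340 to 501 over wild-type spleens.

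Line 8 had 2 arrays, and their mean was used. Over 10401 genes these arrays correlated at r = 0.967, while arrays of different lines correlated at 0.936 to 0.986 with a median of 0.961. Array 1 of line 8 correlated best with array 2 of line 8. Array 2 of line 8 correlated better with 3 of the 8 arrays of other lines, and best with line 6 at 0.968. Among 31 members measured on all 10 arrays of the lines, the arrays of line 8 differed by more than the SD over the lines for 11. Slc7a3, a cationic amino acid transporter, had levels of -4.00 on array 1 and -0.31 on array 2. Chac1, which degrades glutathione, had 0.24 and 2.37, and Pck2, the mitochondrial PEP carboxykinase, had 4.15 and 6.26. Cth, which makes cysteine from cystathionine, had 1.88 on array 1 and 1.18 on array 2, and Stc2, a secreted glycoprotein, had 1.34 and 1.03. The numbers of members called below were the same with either array alone.

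Most of the amino acid synthesis and transport genes had higher RNA in the lymphoma lines than in spleens of either genotype, while a group of stress-induced regulators had lower RNA. Against knockout spleens 24 of the 32 tested members were higher, 5 were lower and 3 were not called, where 41.5% of all genes tested were called higher and 28.9% lower. Against wild-type spleens 23 were higher, 5 lower and 4 not called, where 40.4% of all genes were higher and 30.9% lower. The median log2 difference of the 32 members was 1.71 against knockout spleens and 1.81 against wild-type spleens, and the median of all genes tested was 0.18 and 0.14. When arrays were centred on their median in place of the 75th percentile, all differences moved up, the median of all genes to 0.77 and that of the members to 2.29 against knockout spleens. The members then split into 26 higher and 4 lower, and all genes into 8436 higher and 2604 lower, against 5710 and 3971 with the percentile. The median of the members lay 1.53 above that of all genes under either scaling, which holds by construction because the scalings differ by a constant per array. Against knockout spleens this gap was 1.23 under quantile normalisation and 1.21 with normexp background correction on the median signal. Values of the lines and knockout spleens did not overlap for 21 higher and 4 lower members, where 24.1% and 16.8% of all genes tested showed such a separation. Against wild-type spleens this held for 23 higher and 5 lower members, where it held for 23.9% and 17.9% of all genes. Because the list was drawn up with these contrasts known, the counts are not read against the background, and both contrasts share the same lines. In whole organs and cultures, more cells that express a gene and more RNA per cell cannot be told apart.

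**Figure D1:**
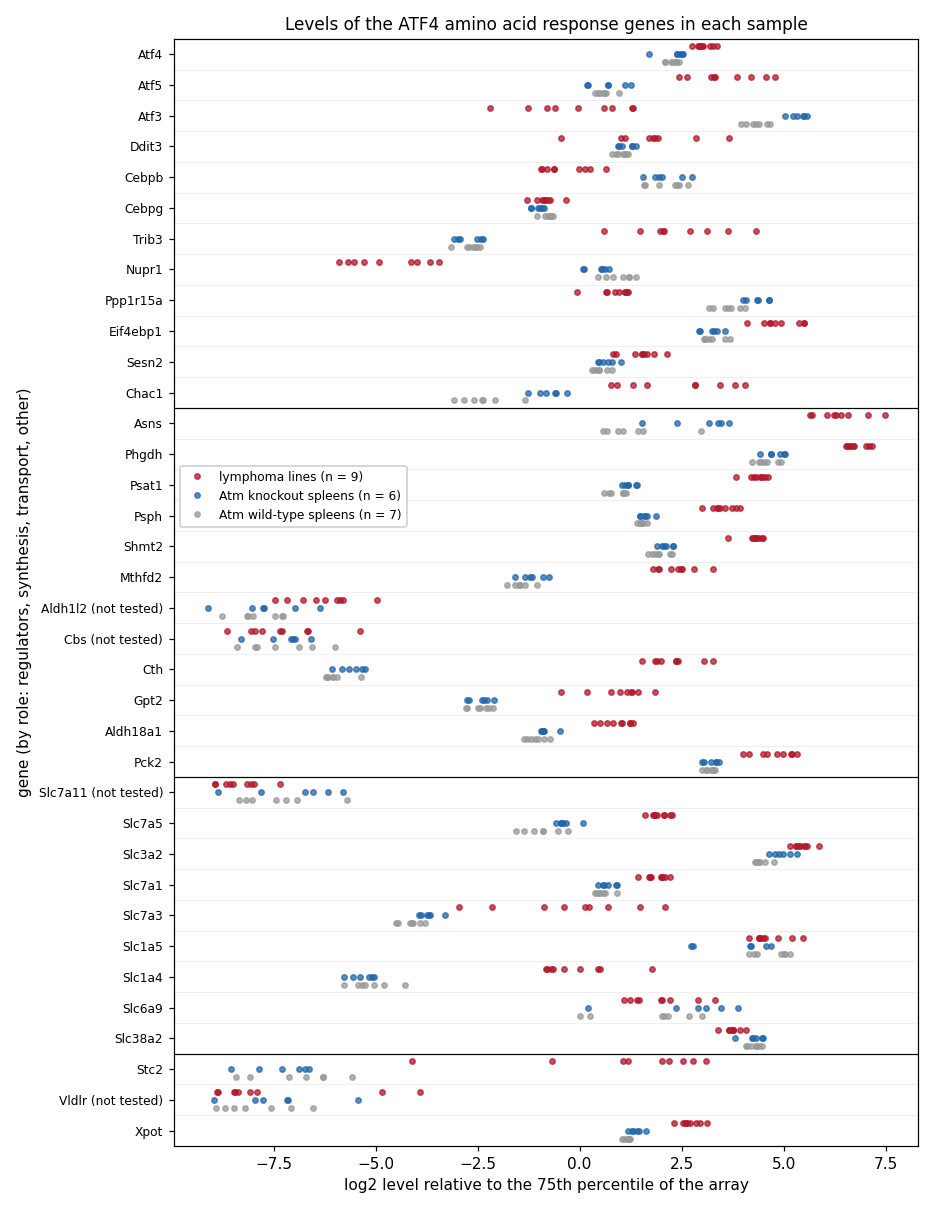
Levels of the 36 members with a probe in every sample, in rows grouped by role, with the lymphoma lines above, Atm knockout spleens in the middle and wild-type spleens below in each row. The x axis is the log2 level relative to the array's 75th percentile and each point is 1 sample; Cth, Stc2, Trib3 and Slc1a4 in the lines lie far to the right of both groups of spleens, and Atf3 and Nupr1 far to the left.

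Among the 12 regulators, 6 were higher and 4 lower in the lines than in knockout spleens, with the same 6 and 4 counts against wild-type spleens. These shares, 50% and 33.3%, lie near the 41.5% and 28.9% of all genes tested against knockout spleens. Atf4 itself had levels of 2.75, 3.00 and 3.37 in the lines (lowest, median and highest), 1.69, 2.43 and 2.55 in knockout spleens and 2.08, 2.30 and 2.44 in wild-type spleens. The groups did not overlap, and the lines were higher by 0.71 ± 0.12 (log2 difference and SE of the fit) against knockout and 0.77 ± 0.12 against wild-type spleens. Atf5, a related factor induced together with Atf4, had 2.44, 3.32 and 4.78 in the lines, 0.17, 0.69 and 1.27 in knockout spleens and 0.38, 0.59 and 0.96 in wild-type spleens, so that every line exceeded every spleen, with differences of 2.90 ± 0.30 against knockout and 3.00 ± 0.28 against wild-type spleens. Trib3, the pseudokinase that restrains ATF4 and AKT, had 0.60, 2.08 and 4.32 in the lines, -3.07, -2.73 and -2.36 in knockout spleens and -3.16, -2.61 and -2.44 in wild-type spleens. The lowest line lay well above the highest spleen, the differences were 5.16 ± 0.39 against knockout and 5.12 ± 0.37 against wild-type spleens, and a further probe of Trib3 gave 4.72 against knockout spleens. Eif4ebp1, the translation repressor under mTORC1, was higher by 1.67 ± 0.19 against knockout and 1.63 ± 0.18 against wild-type spleens, and its further probe gave less, 0.75 and 0.51. Sesn2, a leucine sensor that restrains mTORC1, was higher by 0.81 ± 0.16 against knockout and 0.98 ± 0.15 against wild-type spleens, with lines of 0.81 to 2.14 that overlapped knockout spleens of 0.45 to 1.01 but not wild-type spleens of 0.31 to 0.79.

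Chac1, a target of the ATF4 and CHOP branch, had 0.78, 2.82 and 4.04 in the lines, -1.25, -0.71 and -0.32 in knockout spleens and -3.07, -2.39 and -1.34 in wild-type spleens. All lines exceeded all spleens, and the 2 groups of spleens were also apart, so the difference of the lines was 3.16 ± 0.45 against knockout and 4.78 ± 0.43 against wild-type spleens. Ddit3, which encodes the death-promoting factor CHOP, was not called, with -0.44, 1.81 and 3.66 in the lines, 0.95, 1.16 and 1.37 in knockout spleens and 0.79, 1.06 and 1.19 in wild-type spleens. The lines spread on both sides of the spleens, from line 9 at -0.44 to line 4 at 3.66. Ddit3 was called higher against knockout spleens with slide as a fixed term (0.90). That fit takes the difference from lines 1 to 6, because slide 1 held lines 7, 8 and 9 and no spleens. Ddit3 was also called with arrays centred on their median (1.16), which raised all genes alike. Cebpg, a bZIP partner of ATF4, was not called either, at 0.18 ± 0.11 (SE) against knockout spleens and -0.07 ± 0.11 (SE) against wild-type spleens. Its further probes differed in sign, at -0.07 and 0.42 against knockout and 0.10 and -0.01 against wild-type spleens. With arrays centred on their median Cebpg stood at 0.77 and 0.50 and was called against both. That scaling raised all genes alike, to a median of 0.77 against knockout and 0.71 against wild-type spleens, so the change is that of the scaling.

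The 4 lower regulators were Atf3, Nupr1, Ppp1r15a and Cebpb. Atf3, a stress-induced factor downstream of ATF4, had -2.20, -0.05 and 1.31 in the lines, 5.05, 5.41 and 5.56 in knockout spleens and 3.96, 4.33 and 4.67 in wild-type spleens. No line came near the spleens, and the differences were -5.46 ± 0.41 against knockout and -4.42 ± 0.39 against wild-type spleens. Nupr1, a stress-induced chromatin-associated protein, had -5.89, -4.91 and -3.45 in the lines, 0.08, 0.54 and 0.73 in knockout spleens and 0.46, 1.07 and 1.39 in wild-type spleens, with 8 of 9 lines well above background and differences of -5.16 ± 0.33 against knockout and -5.70 ± 0.31 against wild-type spleens. Ppp1r15a, which encodes GADD34, the subunit that directs the phosphatase to eIF2, had -0.06, 0.96 and 1.18 in the lines, 4.00, 4.36 and 4.65 in knockout spleens and 3.17, 3.65 and 4.06 in wild-type spleens. All 9 lines lay below all 13 spleens, with differences of -3.49 ± 0.18 against knockout and -2.77 ± 0.17 against wild-type spleens. Cebpb, another bZIP partner of ATF4, had -0.94, -0.62 and 0.65 in the lines, 1.57, 1.98 and 2.75 in knockout spleens and 1.59, 2.33 and 2.67 in wild-type spleens and differed by -2.43 ± 0.26 against knockout and -2.46 ± 0.24 against wild-type spleens. Cell types other than B cells differed alongside. The 11 macrophage and monocyte markers with a probe summed to 0.333 to 17.4 over the lines, against 50.6 to 93.4 over knockout and 54.5 to 98.8 over wild-type spleens, and 4 to 10 of them were well above background per line against 11 in every spleen. Csf1r, Adgre1, C1qb and Marco were well above background in 9 of 9 lines, Cd14 in 8 and Mrc1 in 5. C1qa, C1qc, Lyz2 and Vcam1 were so in 1 line each, and Cd163 in 0. In line 9, 98.6% of the sum came from Adgre1. The 10 neutrophil markers summed to 0.0487 to 1.49 over the lines, against 240 to 781 over knockout and 208 to 985 over wild-type spleens, with 1 to 6 above background per line. The 9 erythroid markers with a probe summed to 0.512 to 3.18 over the lines, against 122 to 668 over knockout and 172 to 561 over wild-type spleens, with 2 to 6 above background per line. The 10 NK and T cell markers summed to 8.44 to 26.004 over the lines, against 45.4 to 69.0 over knockout and 60.1 to 79.4 over wild-type spleens, and the 10 stromal and endothelial markers to 0.359 to 0.909, 2.13 to 2.65 and 2.09 to 3.16 in the same groups. The part of these cell types in the lower levels of the 4 regulators was not tested.

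Of the 12 synthesis genes with a probe, 10 were tested and all 10 were higher in the lines than in both groups of spleens, with no overlap. Among all genes, 24.1% were higher without overlap against knockout and 23.9% against wild-type spleens. The median difference of the 10 was 2.64 against knockout spleens and 2.85 against wild-type spleens. Asns, asparagine synthetase, had 5.66, 6.28 and 7.48 in the lines, 1.53, 3.28 and 3.66 in knockout spleens and 0.58, 1.07 and 2.98 in wild-type spleens. The lowest line exceeded the highest spleen, and the differences were 3.45 ± 0.37 against knockout and 5.06 ± 0.35 against wild-type spleens. The serine pathway was higher at each of its steps, in the first enzyme Phgdh by 1.98 ± 0.13 against knockout and 2.21 ± 0.13 against wild-type spleens, in the second, Psat1, by 3.13 ± 0.12 against knockout and 3.43 ± 0.11 against wild-type spleens, and in the last, Psph, by 1.89 ± 0.12 against knockout and 1.98 ± 0.11 against wild-type spleens. Psat1 had 3.84, 4.43 and 4.61 in the lines, 1.03, 1.19 and 1.41 in knockout spleens and 0.61, 1.07 and 1.15 in wild-type spleens. Its lines fell within 0.78 of one another. The further probes of Phgdh (2.01 and 2.21) and Psph (1.87) gave like differences against knockout spleens.

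Shmt2, the mitochondrial enzyme that takes a carbon from serine into the folate pool, was higher by 2.15 ± 0.12 against knockout and 2.31 ± 0.12 against wild-type spleens. Mthfd2, the next enzyme of that mitochondrial route, had 1.80, 2.41 and 3.28 in the lines, -1.58, -1.18 and -0.75 in knockout spleens and -1.77, -1.47 and -1.04 in wild-type spleens and differed by 3.53 ± 0.19 against knockout and 3.83 ± 0.18 against wild-type spleens. Gpt2, the mitochondrial alanine transaminase, had -0.47, 1.17 and 1.85 in the lines, -2.76, -2.36 and -2.10 in knockout spleens and -2.78, -2.44 and -2.13 in wild-type spleens. The groups were apart by 3.37 ± 0.25 against knockout and 3.39 ± 0.24 against wild-type spleens. Aldh18a1, which starts proline synthesis, was higher by 1.74 ± 0.14 against knockout and 1.99 ± 0.14 against wild-type spleens, and Pck2 by 1.53 ± 0.17 against knockout and 1.56 ± 0.16 against wild-type spleens.

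Cth had the largest difference of the synthesis genes. Its levels were 1.53, 2.37 and 3.28 in the lines, -6.07, -5.57 and -5.27 in knockout spleens and -6.21, -6.05 and -5.35 in wild-type spleens. Its probe was above background in 9 of 9 lines, 6 of 6 knockout spleens and 6 of 7 wild-type spleens. Wild-type spleen 6, at -6.04, was not above background, while wild-type spleens 1 to 4, at -6.05 to -6.21, were. The signal in spleens therefore lay near that limit. The differences were 7.92 ± 0.22 against knockout and 8.30 ± 0.21 against wild-type spleens, or 241-fold and 316-fold on the linear scale. These folds rest on the dim spleen signals, and the second includes wild-type spleen 6. Cbs, which supplies the cystathionine that Cth splits, was above background in 1 of 9 lines, 1 of 6 knockout spleens and 1 of 7 wild-type spleens, so it has no measured difference here. Aldh1l2, the mitochondrial folate dehydrogenase, was above background in 3 of 9 lines, 1 of 6 knockout spleens and 0 of 7 wild-type spleens.

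**Figure D2:**
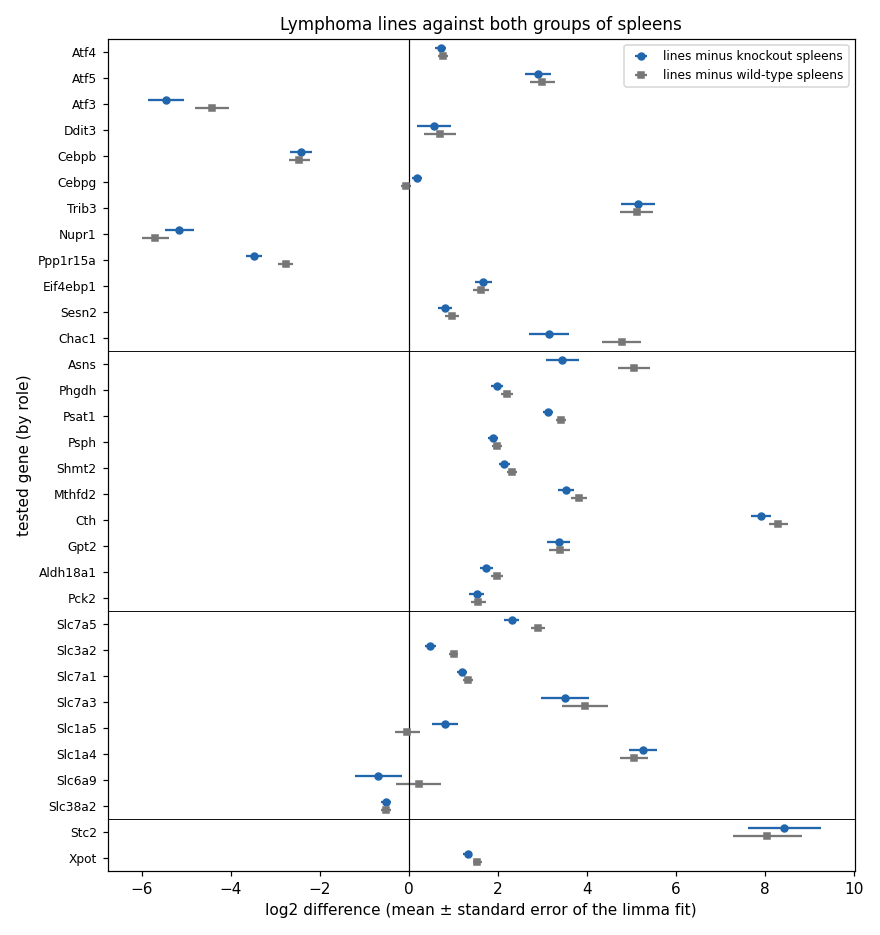
Log2 differences of the 32 tested members, lines minus knockout spleens as circles and lines minus wild-type spleens as squares, in rows grouped by role. Bars are standard errors of the limma fit, and Stc2 is drawn as fitted although most spleens were at background for it; all 10 synthesis genes lie right of 0, while Atf3, Nupr1, Ppp1r15a and Cebpb lie left of it.

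Of the 8 tested transporters 6 were higher (75%) and 1 lower (12.5%) than in knockout spleens, where all genes had 41.5% and 28.9%. Against wild-type spleens 5 were higher (62.5%) and 1 lower (12.5%), where all genes had 40.4% and 30.9%. Slc1a4, an exchanger of serine, alanine and other neutral amino acids, had -0.82, -0.38 and 1.77 in the lines, -5.78, -5.26 and -5.05 in knockout spleens and -5.77, -5.26 and -4.29 in wild-type spleens. Every line exceeded every spleen, the differences were 5.26 ± 0.32 against knockout and 5.06 ± 0.31 against wild-type spleens, and its further probe gave 4.52 against knockout spleens. Slc7a3 had -2.95, 0.14 and 2.10 in the lines, -3.93, -3.72 and -3.30 in knockout spleens and -4.51, -4.10 and -3.80 in wild-type spleens. The lines spread over 5.05 log2 units but all exceeded all spleens, by 3.51 ± 0.54 against knockout and 3.96 ± 0.51 against wild-type spleens. Slc7a5, the light chain of the large neutral amino acid exchanger, had 1.60, 1.91 and 2.26 in the lines, -0.59, -0.42 and 0.08 in knockout spleens and -1.56, -0.90 and -0.28 in wild-type spleens and differed by 2.31 ± 0.16 against knockout and 2.90 ± 0.16 against wild-type spleens. Its heavy chain Slc3a2 differed less, by 0.48 ± 0.11 against knockout and 1.01 ± 0.11 against wild-type spleens, its lines overlapped knockout spleens, and under quantile normalisation its difference against knockout spleens was -0.03. Slc7a1, the general cationic transporter, was higher by 1.20 ± 0.12 against knockout and 1.33 ± 0.11 against wild-type spleens.

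Slc1a5, the glutamine exchanger, was higher than in knockout spleens by 0.81 ± 0.30 (SE) but differed from wild-type spleens by -0.03 ± 0.28 (SE). Its levels were 4.16, 4.49 and 5.48 in the lines, 2.72, 4.18 and 4.69 in knockout spleens and 4.15, 4.93 and 5.15 in wild-type spleens. Knockout spleens 1 and 3 were at 2.77 and 2.72, below the other 4 at 4.17 to 4.69. The call against knockout spleens was lost with quantile normalisation (0.35). It was also lost with slide as a fixed term (0.67), a fit that takes the difference from lines 1 to 6. Slc1a5 was the 1 called member without the called direction on every slide, with 4 of 5. Slc6a9, a glycine transporter, was not called, at -0.69 ± 0.53 (SE) against knockout spleens and 0.22 ± 0.51 (SE) against wild-type spleens. Slc38a2, a sodium-coupled neutral amino acid transporter, was lower, with differences of -0.51 ± 0.11 against knockout and -0.51 ± 0.11 against wild-type spleens. With arrays centred on their median it stood at 0.07 and 0.06, a scaling that raised all genes alike, so its place relative to the median of all genes was the same. Its further probe differed, at 0.10 against knockout spleens. Slc7a11, the cystine and glutamate exchanger, was above background in 0 of 9 lines, 3 of 6 knockout spleens and 1 of 7 wild-type spleens.

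Both tested members outside these roles were higher. Stc2 had -4.11, 2.03 and 3.10 in the lines, -8.54, -7.08 and -6.63 in knockout spleens and -8.43, -6.72 and -5.57 in wild-type spleens. It was above background in 9 of 9 lines, 0 of 6 knockout spleens and 2 of 7 wild-type spleens. Against knockout spleens its signal was at least 226-fold higher, taking the lowest measurable signal of each array for the spleens. Against wild-type spleens no size is given, because 5 of 7 were not well above background. Xpot, the exportin that carries tRNA out of the nucleus, was higher by 1.32 ± 0.10 against knockout and 1.54 ± 0.10 against wild-type spleens. Vldlr, a lipoprotein receptor, was above background in 2 of 9 lines, 1 of 6 knockout spleens and 1 of 7 wild-type spleens, and lines 5 and 7 stood at -3.91 and -4.84 while the other lines lay between -8.88 and -7.90. Within the 5 slides that held lines and knockout spleens, 28 of the 29 called members had the called direction on every slide. For the 21 higher and 4 lower members without overlap this was fixed in advance. Sesn2, Slc3a2, Slc38a2 and Slc1a5 overlapped, and of these only Slc1a5 missed the direction on a slide. Lines 7, 8 and 9, on slide 1, do not enter this count.

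Other genes of the pathway were described from lists fixed alongside the members. Of the 20 cytosolic tRNA synthetases, which charge tRNA with amino acids, 18 were higher and 0 lower in the lines than in knockout spleens, with 17 higher and 0 lower than in wild-type spleens. The higher genes made up 90% of the list against knockout spleens, where 41.5% of all genes were higher, and 85% against wild-type spleens, where 40.4% were. The median difference of the 20 from knockout spleens was 1.28, where all genes had 0.18. Nars (2.95), Gars (2.21) and Yars (2.11) had the largest differences. Nars was lower in knockout than in wild-type spleens, with a log2 difference of -0.45 ± 0.07 (SE) and a limma adjusted p of 0.0051. Of the 17 mitochondrial synthetases 9 were higher and 1 lower than in knockout spleens, with a median of 0.35, a share of 52.9% higher where all genes had 41.5%. Fars2 (2.18) and Rars2 (0.85) were among the higher ones, and Tars2 (-0.40) was the lower one. Against wild-type spleens 9 were higher and 5 lower (29.4%, where all genes had 30.9%), so the shares of this list lay near those of all genes.

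A list upstream of ATF4 held the eIF2 kinases, subunits of eIF2 and of its exchange factor eIF2B, and regulators of these. Of its 12 genes 7 were higher (58.3%) and 2 lower (16.7%) than in knockout spleens, where all genes had 41.5% and 28.9%. Against wild-type spleens 9 were higher (75%) and 1 lower (8.33%), where all genes had 40.4% and 30.9%. Eif2b1 (1.29), Eif2s1 (1.05) and Eif2b5 (0.91) were the largest increases. The kinase PKR, encoded by Eif2ak2, was lower, with a log2 difference of -1.71 ± 0.20 (SE). Impact, an inhibitor of the kinase GCN2, was -0.50 against knockout and 0.71 against wild-type spleens, and it was higher in knockout than in wild-type spleens by 0.98 ± 0.14 (SE), with a limma adjusted p of 0.0039.

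Of 13 folate enzymes outside the list 9 were higher (69.2%) and 1 lower (7.69%) against each group of spleens. All genes had 41.5% and 28.9% against knockout spleens, and 40.4% and 30.9% against wild-type spleens. Shmt1 (2.24) and Mthfd1l (1.37) were among those higher than in knockout spleens, and Aldh1l1 (-3.09), above background in 4 of 9 lines, was the lower one. Of 13 genes of the methionine cycle, cysteine use and glutathione 7 were higher (53.8%) and 2 lower (15.4%) against each group. The higher share lay near the 41.5% and 40.4% of all genes against knockout and wild-type spleens. Ahcy (1.80), Mpst (1.25) and Gss (1.01) led the higher ones, and Oplah (-1.60) and Csad (-0.84) were lower. Of 19 other genes tied to ATF4 in the literature 9 were higher and 1 lower than in knockout spleens, with a median of 0.47. The 47.4% that were higher lie near the 41.5% of all genes. Jdp2, an AP-1 repressor, stood at 3.44, and Fgf21, a secreted stress hormone, was above background in 7 of 9 lines, 1 of 6 knockout spleens and 0 of 7 wild-type spleens, so no size is given. Ddit4, which restrains mTORC1, was 2.57 higher than in knockout spleens but 0.29 ± 0.31 (SE) from wild-type spleens and not called there. Gdf15, a stress-induced cytokine, was lower, at -3.62.

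Genes of the XBP1 and ATF6 branches, which enlarge the folding capacity of the endoplasmic reticulum in the same stress network, were higher in 11 and lower in 1 of 14 against each group of spleens, with medians of 1.22 and 1.26. These are 78.6% and 7.14%, where all genes had 41.5% and 28.9% against knockout and 40.4% and 30.9% against wild-type spleens. Xbp1 (2.21), Sel1l (2.02) and Manf (1.92) had the largest increases over knockout spleens, and Dnajb9 (-1.24) was lower.

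Knockout spleens were compared with wild-type spleens in a fit with a term for sex. All knockout spleens were female, so the fitted difference is that against the 3 female wild-type spleens. Of the 32 members 2 were higher in knockout spleens, 0 were lower and 30 were not called, where 1.66% of all genes were called higher and 2.16% lower. At an unadjusted p under 0.05 in limma, 6 were higher and 3 lower, which makes 9 of 32 where 20.4% of all genes reached it. Stc2 is among the 3 lower, although its probe was well above background in 0 of 6 knockout and 2 of 7 wild-type spleens, so it has no measured difference between genotypes. The median difference of the members was 0.12 and that of all genes -0.05.

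Chac1 and Atf3 were the called members, both regulators. Chac1 had levels of -0.60, -0.32, -1.25, -0.83, -0.97 and -0.58 in the 6 knockout spleens, against -3.07, -1.34, -2.39, -2.37, -2.08, -2.82 and -2.60 in the 7 wild-type spleens. Every knockout spleen lay above every wild-type spleen, with knockout spleen 3 and wild-type spleen 2 close to each other, and the fitted difference was 1.74 ± 0.32 (SE) with a limma adjusted p of 0.0123. Atf3 had 5.49, 5.22, 5.05, 5.34, 5.49 and 5.56 in knockout spleens, against 4.08, 4.24, 3.96, 4.40, 4.67, 4.58 and 4.33 in wild-type spleens. These groups did not overlap either, and the difference was 0.83 ± 0.14 (SE) with a limma adjusted p of 0.0075. Of all genes, 2.27% were higher in knockout spleens without overlap.

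Asns had a fitted difference as large as that of Chac1 but more spread. It had 3.39, 3.66, 3.17, 2.39, 3.48 and 1.53 in knockout spleens, against 0.58, 2.98, 1.07, 0.95, 1.56, 0.66 and 1.44 in wild-type spleens. Wild-type spleen 2 and knockout spleen 6 crossed into the other group, and the difference of 1.72 ± 0.55 (SE) had a limma adjusted p of 0.108. Their neutrophil sums were 985, the highest of the spleens, and 455, and their erythroid sums were 561 and 122, the lowest of the spleens. Over the 13 spleens Asns had r = 0.714 with the neutrophil markers but did not pass (permutation adjusted p of 0.165). It did not pass with the erythroid (0.425) or macrophage markers (0.514) either. Ppp1r15a (0.69 ± 0.21, SE) and Slc7a3 (0.55 ± 0.17, SE) each had a limma adjusted p of 0.096 and 0.095, and Slc3a2 (0.38 ± 0.14, SE) had 0.144. The remaining members at an unadjusted p under 0.05 had negative differences, Nupr1 of -0.60 ± 0.22 (SE) and Slc1a5 of -1.17 ± 0.43 (SE), beside Stc2, for which no size is given.

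The number of calls between genotypes changed with the model. Without the term for sex, which brings in the 4 male wild-type spleens, 6 members were called, Atf3, Chac1, Asns, Ppp1r15a, Slc3a2 and Slc7a3, all higher in knockout spleens. With slide as a random block 4 were called, and with slide as a fixed term only Atf3, as Chac1 then had 1.61 and a limma adjusted p of 0.084. The summed macrophage, neutrophil and erythroid markers of the genotypes overlapped, as given above, and 0 markers of these lists were called. The median log2 difference, knockout minus wild-type, was 0.93 for neutrophil, 1.11 for erythroid and -0.25 for macrophage markers, where all genes had -0.05. Of the 10 NK and T cell markers 3 were lower in knockout spleens, with log2 differences of -1.29 for Klrb1c, -0.76 for Klrd1 and -0.61 for Gzma and limma adjusted p of 0.0082, 0.022 and 0.019. The part of these cell types in the higher Chac1 and Atf3 was not tested. Of the pathway lists, Ddit4 was lower in knockout spleens, at -2.26 ± 0.42 (SE, limma adjusted p of 0.0134), and Got1, the cytosolic aspartate transaminase, was higher by 0.86 ± 0.12 (SE, limma adjusted p of 0.0044). Gadd45a (0.98) and Tnfrsf10b (0.85) were also higher, with limma adjusted p of 0.017 and 0.016.

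Over the 13 spleens, the 32 tested members were set against the log2 of the summed erythroid, neutrophil and macrophage markers, which makes 96 relations with p from 100000 permutations. After Benjamini-Hochberg adjustment over the 96, 3 relations passed at 0.05. Slc6a9 followed the erythroid markers with r = 0.891 (permutation adjusted p of 0.0096) and Spearman's rho of 0.868 (permutation adjusted p of 0.0086), and r was 0.860 without the 2 spleens farthest from the median. Within the genotypes r was 0.984 over knockout and 0.914 over wild-type spleens. The lowest Slc6a9 levels, 0.21 in knockout spleen 6, 0.26 in wild-type spleen 6 and close to 0 in wild-type spleen 1, were those of the spleens with the lowest erythroid sums. Eif4ebp1 followed the macrophage markers with r = 0.868 and rho = 0.874 (permutation adjusted p of 0.0096 and 0.0086). Without the 2 farthest spleens r was 0.796, and it was 0.981 over knockout and 0.766 over wild-type spleens. Mthfd2 followed the neutrophil markers with r = 0.841 and rho = 0.863 (permutation adjusted p of 0.0134 and 0.0086). Without the 2 farthest spleens r was 0.804, and it was 0.796 over knockout and 0.924 over wild-type spleens. Chac1, called between genotypes, did not pass with any of the 3 sums, and its r with the neutrophil markers was 0.133 over knockout and 0.880 over wild-type spleens.

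**Figure D3:**
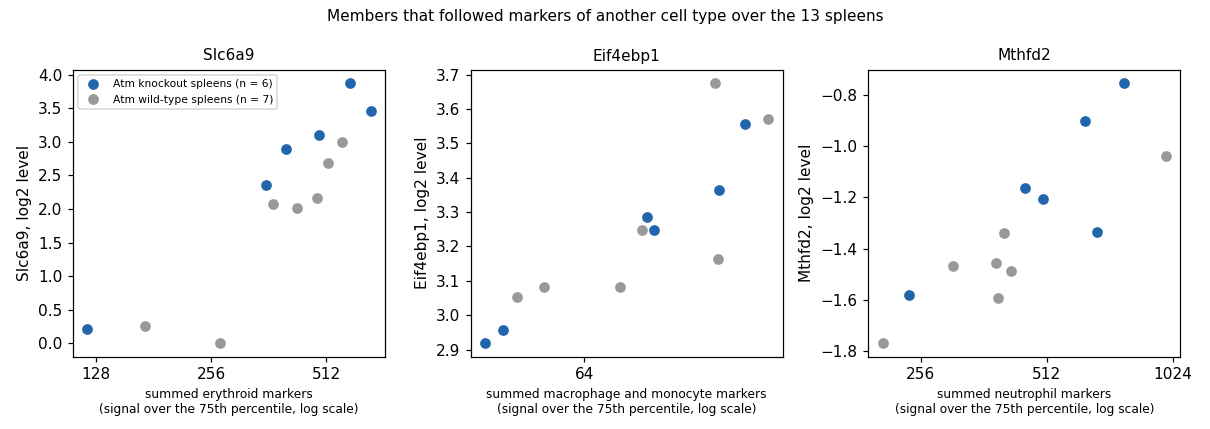
Levels of Slc6a9, Eif4ebp1 and Mthfd2 (y axes, log2 level) against the summed erythroid, macrophage and neutrophil markers (x axes, signal relative to the 75th percentile, log scale) in 6 knockout and 7 wild-type spleens, 1 point per spleen. All 3 rise with the markers within both genotypes.

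The lines differed from one another, and the members moved together among them. For each of the 31 members measured on all arrays of the lines, its level was set against the mean of the other 30, each first centred on its mean over the lines and divided by its SD. The median of these correlations was 0.600, with 29 of 31 above 0, while 10370 other genes had a median of 0.0694 against the mean of the members and 54.6% above 0. These are descriptions over 9 lines that share their culture type, with lines 7, 8 and 9 on slide 1 and lines 4 and 5 on slide 5. Slc1a4 (0.940), Asns (0.923), Trib3 (0.858), Mthfd2 (0.852) and Gpt2 (0.808) followed the rest most closely. Psph (-0.0231) and Slc1a5 (-0.0943) had values below 0, and Aldh18a1 had 0.0627. The median depended on single lines, left out after seeing the data. Without line 4 it was 0.460 with 27 members above 0, where other genes had a median of 0.0709. Without line 9 it was 0.717 with 31 above 0, where other genes had 0.102.

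Line 4 had the highest level for 17 of the 31 members and the highest mean of all members, 1.17 SD units above the mean of the lines. Line 5 followed at 0.469 and line 7 at 0.325. Line 1 stood at 0.0226, line 3 at -0.00536, line 6 at -0.245 and line 8 at -0.368. Line 9 stood at -0.592 and had the lowest level for 13 members, and line 2 stood lowest at -0.775. Trib3 gives an example, with 3.13, 2.06, 2.08, 4.32, 3.63, 1.97, 2.71, 1.48 and 0.60 in lines 1 to 9. Asns had 6.28, 5.66, 6.23, 7.48, 7.07, 6.58, 6.40, 6.06 and 5.70 in the same lines. Both were highest in lines 4 and 5.

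**Figure D4:**
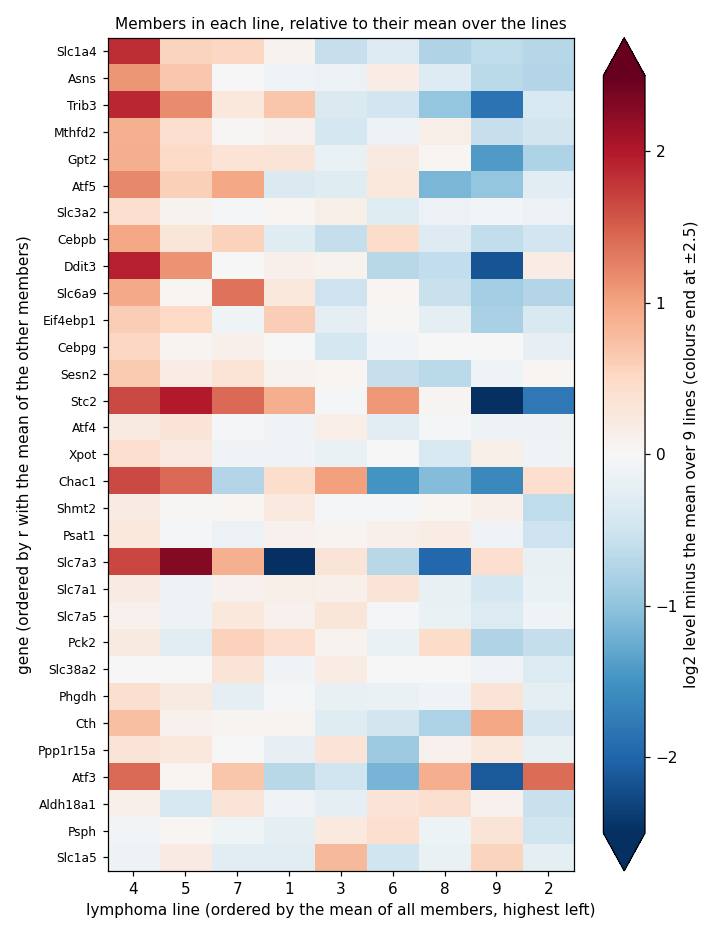
Levels of 31 members (rows, ordered by their correlation with the mean of the other members) in the 9 lymphoma lines (columns, highest mean of the members left), each minus its mean over the lines, in log2 units by colour. Line 4 is red in most upper rows, line 9 is blue for Stc2, Ddit3, Trib3 and Atf3, and Cth in line 9 is red.

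Cth levels in lines 1 to 9 were 2.37, 1.89, 2.00, 3.06, 2.41, 1.85, 2.37, 1.53 and 3.28. Line 9 was the highest for Cth although it was among the lowest for the other members, and line 4 came next. Over 9 lines Cth had r = 0.357 and rho = 0.433 with the mean of the other 30 members, which placed it 26th of 31, and 30.9% of the 10370 other genes had at least that r with the members. Without line 9, r was 0.891, which follows in part from leaving out the line in which Cth departs most. Without line 4, r was 0.0202, so the value rested on these lines. Without both it was 0.786 over 7 lines. Without lines 2 and 4, the 2 farthest from the median of the other members, r was -0.170.

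Stc2 followed the rest in rank and had the widest range of the members over the lines, 7.21 log2 units. Its levels in lines 1 to 9 were 2.03, -0.67, 1.07, 2.77, 3.10, 2.20, 2.54, 1.19 and -4.11. Line 5 was the highest, and line 9 lay far below the next, line 2. Stc2 had r = 0.667 and rho = 0.883 with the mean of the other members, which placed it 14th of 31, and 9.08% of other genes had at least that r. Leaving out 1 line at a time gave 0.627 to 0.790, the highest without line 9, and without the 2 farthest lines r was 0.751.

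**Figure D5:**
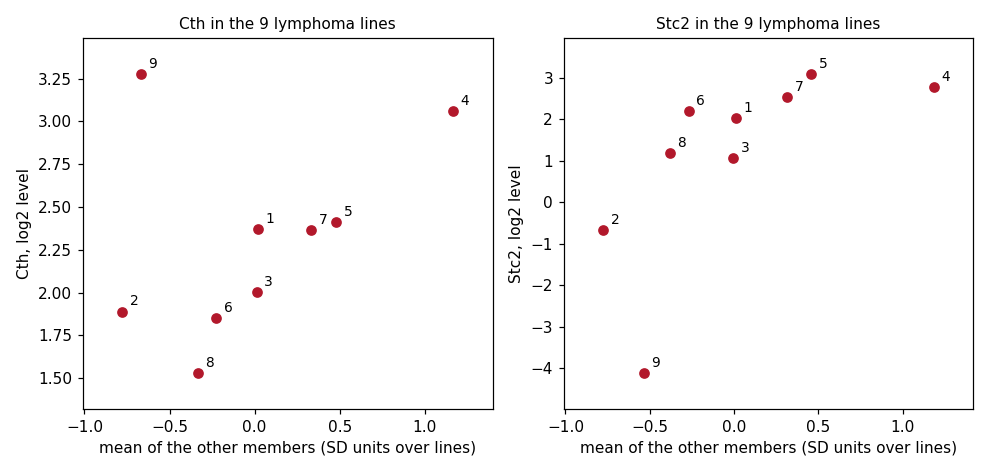
Log2 levels of Cth (left) and Stc2 (right) in the 9 lymphoma lines (numbered points) against the mean of the other members in SD units. Line 9 has the highest Cth, 3.28, and the lowest Stc2, -4.11, at a mean of the other members below 0.

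Cth and Stc2 parted in line 9. Their correlation with each other was -0.315 with rho = 0.167, and r was 0.613 without line 9. The way both genes follow the others line by line was part of how they were chosen, so their pairs with single members are described without a test. Of the 30 pairs of Cth 24 had r above 0, with a median of 0.218, and Xpot and Phgdh each had r = 0.793. Without the 2 lines farthest from the median of the partner, r was 0.808 for Xpot (lines 4 and 5) and 0.346 for Phgdh (lines 4 and 9). Of the remaining 29 pairs of Stc2 25 had r above 0, with a median of 0.461. Gpt2 had r = 0.960 with Stc2, and Eif4ebp1 had r = 0.824. By rank, Asns had rho = 0.933 with Stc2. Gpt2 had 1.27, 0.17, 0.78, 1.85, 1.43, 1.17, 1.28, 0.997 and -0.47 in lines 1 to 9, lowest in lines 9 and 2 as Stc2 was. Without lines 2 and 9, the farthest from the median of Gpt2, r was 0.833.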

How the data were processed

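The 22 samples were read on 23 one-colour arrays. Per the file headers, the deposited intensity of a spot is the processed signal of Agilent Feature Extraction 10.7.1.1, which is already background-subtracted. RNA was extracted with a column kit and DNase, per the labels' protocols. The deposited log2 value table is the same signal with every probe centred, and served as an alternative.

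The 1639 control spots of each array were removed, which left 43379, and outlier flags removed 1556 more over all arrays together. Signals were scaled to the 75th percentile of their array and taken to log2. Of 41174 probes 26690 had a symbol through RefSeq accessions (GRCm38.p6) and 14484 had none, and those with a symbol gave 18217 genes. Each gene was represented by its brightest probe, and 13743 genes well above background in at least 6 of 22 samples were tested. No probe value was saturated (0). Limma 3.58.1 in R 4.3.3 fitted the 3 groups together and the 13 spleens with a term for sex, with Benjamini-Hochberg adjustment at 0.05. Nothing in the labels says whether mice shared a litter, and p-values measure only the spread between these samples, which may in part be technical.

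Where no array of a group was above background, the fold is a lower bound that uses the lowest signal of any probe above background on each array. Alternatives changed the scaling, the background correction, the filter, the probe rule, slide, sex and the array used for line 8. The normexp background correction was planned on the mean spot signal and used the median signal, since the mean is not among the columns used here. All members are named, with up to 3 called genes per direction of each pathway list and up to 2 named markers per marker list by rule. Some genes that this rule selects are not reported here. The further markers and pathway genes named in the text were chosen after their values were seen. The members and lists were chosen with earlier results of these data known. In data simulated with the same spread, 62% of 100 genes shifted by 1 on the log2 scale were recovered between lines and knockout spleens and 24% between genotypes, and 20% and 1% at a shift of 0.5. Only 100 genes per size of shift were changed among 13743, and genes were drawn independently. In the data 41.5% of genes were called higher and 28.9% lower between lines and knockout spleens. The simulated shares therefore do not give the recovery for that contrast. The number of arrays limits the precision.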

Additional observations from a re-analysis of the deposited data

Results flagged for a closer look

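Single samples stood apart from the rest of their group for 8 of the 96 sets of values examined, by Dixon's test of the gap to the nearest sample, and chance alone marks about 5% of such sets. Among the lymphoma lines, Slc1a4 was high in line 4 at 1.77, where the next line had 0.49. Shmt2 was low in line 2 at 3.64, where the next had 4.22, and Ppp1r15a was low in line 6 at -0.059, where the next had 0.64. Among knockout spleens, Atf4 was low in spleen 2 at 1.69 against 2.38 in the next, and Slc7a5 was high in the same spleen at 0.077 against -0.34. Aldh18a1 was high in knockout spleen 5 at -0.47 against -0.88. Among wild-type spleens, Asns was high in spleen 2 at 2.98 against 1.56 in the next, and Cth was high in spleen 5 at -5.35 against -5.94. Levels are log2 values relative to the 75th percentile of the array.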

How the results depend on the processing

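Over all alternatives tried, 23 to 26 members were called higher and 4 to 6 lower between lines and spleens. Between knockout and wild-type spleens 2 members were called, against 6 without the term for sex, 4 with slide as a random block, 1 with slide as a fixed term and 0 with normexp on the median signal, where limma gave 5 at an unadjusted p under 0.05. In that normexp fit the background estimate was -472 in line 3, -1068 in wild-type spleen 3 and -782 in wild-type spleen 7, against -28.2 to -0.931 on the other arrays, and spots on those arrays lay as low as -101476 after subtraction. Leaving out the spots that the scanner marks as outliers, an alternative chosen after seeing the data, brought the estimates to between -10.0 and -0.498 and the count to 3, Atf3, Chac1 and Ppp1r15a (limma adjusted p of 0.0036, 0.0076 and 0.047). The correlation of Cth with the other members was -0.170 without the 2 farthest lines, and 0.0202 to 0.891 leaving out 1 line. That of Stc2 was 0.518 with arrays centred on their median, 0.880 without lines 4 and 9 (chosen after seeing the data), and 0.627 to 0.790 leaving out 1 line. Of the single differences, 1030 kept their side of the threshold, 14 were newly called and 8 lost. The 1030 include 96 from the deposited value table, which is the same signal with every probe centred. They also include 32 from female spleens alone, where the fitted difference is the same as in the main fit. Those of the 1030 that were called kept their direction, while those not called may have changed sign. Another 4 changed sign and were called under at least 1 of the 2 settings compared. They were Cebpg at 0.50 against wild-type spleens and Slc38a2 at 0.073 against knockout and 0.057 against wild-type spleens, all with arrays centred on their median, which raised all genes alike, and Slc3a2 at -0.025 against knockout spleens under quantile normalisation. The causes of the other shifts were not tested. No paired analysis was possible because the replicate numbers follow the order of deposit and pair no samples.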

Other observations

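Among the macrophage and monocyte markers, line 9 had an Adgre1 level of 4.10, where the highest other line had -0.09 and the lowest spleen 3.04. All 10 other macrophage and monocyte markers of line 9 lay below every spleen, for instance Csf1r at -4.28 and Lyz2 at -8.14, where the lowest spleens had 0.89 and 0.97. This is the line in which Cth was highest and Stc2 lowest. Whether these values are related was not tested.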
